A study of Mus musculus with 9 samples.

Results

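The genes described here encode glucose transport, the steps of glycolysis and a part of the transcriptional response to low oxygen. They were chosen by name, with earlier results of these data known. Of 35 genes, 33 had a probe set with a single gene symbol on the array, among 19938 genes measured that way in all. Gpi1 and Eno1 were not measured by such a probe set. By role the 33 genes comprised 3 transporters, 10 genes acting from hexokinase to aldolase, 6 acting from triose phosphate to lactate and 14 hypoxia response genes.

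Expression was measured in BaF3, a mouse haematopoietic cell line that depends on interleukin-3 and is usually described as pro-B. The cells had been infected with a retrovirus carrying 1 of 3 fusion tyrosine kinases, BCR-ABL (the p210 form, per the series' design text), BCR-RET or FGFR1OP-RET, and all were sorted by EGFP fluorescence, so the 3 groups share infection, sorting and the reporter. Each group had 3 Affymetrix MouseGene 1.0 ST arrays, titled with the numbers 1, 2 and 3; what the number stands for is not given in the labels. No source used here says whether arrays of 1 fusion stem from independent infections, so each p-value reflects only how these arrays vary, and that variation may be technical. Uninfected cells were not analysed here, culture conditions and oxygen tension are not stated in the sources used here, and each fusion is described in this 1 cell line. The comparisons ask how these genes differ between cells driven by different fusions and, by the numbers in the titles, between arrays within a fusion.

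Glycolysis converts glucose to pyruvate and then to lactate, with hexokinase and phosphofructokinase as its main points of control. When oxygen is low, the prolyl hydroxylases that mark the alpha subunits of hypoxia-inducible factor (HIF) for destruction slow down, and the stabilised factor pairs with ARNT and raises the transcription of genes for glucose transport, glycolysis, angiogenesis and the reshaping of mitochondria. Many of these genes also answer to growth factor signalling, nutrient supply and other stresses, and oncogenic tyrosine kinases are known to raise glucose use in blood cells.

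HIF binds the core letters ACGTG or GCGTG, and the proximal promoters of the members the results turn on are shown for that reason. The sequences are the 250 bases before the transcription start in RefSeq (GRCm38.p6), matched by gene symbol, 5′ to 3′ on the strand of the gene, with capitals marking each match to ACGTG or GCGTG on either strand; a match is a description of letters and not a measured binding site. Ankrd37, Ddit4 and Hk2 had the highest log2 differences of the comparison by array number, and Hk3 was the member that passed in the comparisons of fusions.
Ankrd37 (chr8:45999851-46000100, minus strand): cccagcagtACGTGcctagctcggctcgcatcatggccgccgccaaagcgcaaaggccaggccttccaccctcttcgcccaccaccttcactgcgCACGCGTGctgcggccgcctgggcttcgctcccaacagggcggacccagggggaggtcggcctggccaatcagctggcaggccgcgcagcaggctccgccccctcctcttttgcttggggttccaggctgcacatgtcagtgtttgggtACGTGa
Ddit4 (chr10:59951771-59952020, minus strand): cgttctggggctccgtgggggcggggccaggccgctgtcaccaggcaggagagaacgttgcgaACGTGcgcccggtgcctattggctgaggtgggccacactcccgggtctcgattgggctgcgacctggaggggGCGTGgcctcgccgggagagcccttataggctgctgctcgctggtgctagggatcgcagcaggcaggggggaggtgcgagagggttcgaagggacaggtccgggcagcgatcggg
Hk2 (chr6:82774455-82774704, minus strand): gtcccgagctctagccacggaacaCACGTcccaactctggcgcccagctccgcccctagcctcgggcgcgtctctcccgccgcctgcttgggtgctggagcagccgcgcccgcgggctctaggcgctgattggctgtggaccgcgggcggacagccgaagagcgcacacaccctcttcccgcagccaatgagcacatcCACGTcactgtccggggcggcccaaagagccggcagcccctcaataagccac
Hk3 (chr13:55021386-55021635, minus strand): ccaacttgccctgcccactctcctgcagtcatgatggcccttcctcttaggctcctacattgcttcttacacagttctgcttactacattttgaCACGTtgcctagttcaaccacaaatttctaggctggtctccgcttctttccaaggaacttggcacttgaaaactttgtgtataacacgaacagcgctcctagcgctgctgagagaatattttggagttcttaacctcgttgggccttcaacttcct

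Counted on both strands, a match began at bases -241, -155, -152 and -6 of Ankrd37 relative to the start (-1 is the last base before it), the middle pair overlapping on opposite strands. Ddit4 had matches at -187 and -115, Hk2 at -226 and -52, and Hk3 at -156. RefSeq windows were found for 31 of the 33 measured members, 46 windows in all, since some genes have several starts whose windows can overlap. A match was present in 36 of the 46 windows (78.3%), against 12679 of 32851 windows of all genes (38.6%). The member windows were also richer in CG dinucleotides, a median of 13.5 against 6, and among the 9646 windows of all genes with at least that many, 67.3% held a match. Counted by gene, 29 of 31 members (93.5%) had a match in some window, against 41.5% of all genes and 68.9% of the genes with such windows. Those windows are not matched to the members: their median was 22 CG dinucleotides, above 13.5. The share by gene also rises with the number of windows, which was 46 for 31 members and 9646 for 8575 genes of that set. Of the windows of members higher on the arrays numbered 1, 10 of 14 held a match, and of the windows of the other members 26 of 32; the difference was not tested. Among the matches, 4 of the 46 windows (8.70%) held CACGTG, the E-box letters that contain ACGTG and are also read by MYC and USF proteins. The share was 6.02% of all windows and 9.80% of those with at least the members' median of CG dinucleotides.

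The arrays numbered 1 deviated together across the 3 fusions, and so did those numbered 3. Deviations from the group mean were correlated across all genes. For the arrays numbered 1, r was 0.617 between BCR-RET and BCR-ABL, 0.382 between FGFR1OP-RET and BCR-ABL and 0.498 between BCR-RET and FGFR1OP-RET. For the arrays numbered 3 it was 0.367 in the first of these pairs and 0.4096 in the last. Between FGFR1OP-RET and BCR-ABL it was slightly above the value for number 1. FGFR1OP-RET array 2 also deviated with array 1 of BCR-ABL (r = 0.213) and of BCR-RET (r = 0.209). The correlations therefore do not set number 1 alone apart. Array medians ran from 8.01 to 8.04. Markers of the labelled cell were mixed: Ptprc (11.67), Il3ra (10.41), Csf2rb (12.50), Csf2rb2 (11.67) and Csf2ra (8.38) had mean log2 values above the array medians. Of the B lineage markers, Cd79b (9.75) and Vpreb2 (8.99) lay above them. Ebf1 (6.46), Pax5 (7.53), Cd79a (6.05), Vpreb1 (7.57), Igll1 (7.81), Rag1 (6.76), Dntt (6.28) and Il7r (5.63) lay below. Of the markers of other cells, Pecam1 (11.48), Col1a1 (8.98), Col3a1 (8.59) and Col1a2 (8.47) also lay above the medians and the rest below. A value above the medians therefore does not by itself mark a cell type. No detection calls were used, so a low value does not show absence. Of 29 measured markers of this and other cell types, 0 differed between arrays numbered 1 and the rest in limma (3 had an unadjusted p under 0.05). Csf2rb and Csf2rb2, subunits of the interleukin-3 receptor, were higher in both RET fusions than in BCR-ABL cells (Csf2rb by 0.72 and 0.69, Csf2rb2 by 0.90 and 0.56), and Ptprc was 0.36 lower in BCR-RET than in FGFR1OP-RET cells. A further list of 25 myeloid and granule genes, chosen after values of these data were seen, did move with the array number: 8 were lower on the arrays numbered 1 and 0 higher, among them Mcpt8 (-1.10, adjusted p = 0.0272), Ly96 (-1.08, 0.0451), Ctsg (-0.85, 0.0461), Ms4a3 (-0.72, 0.0408) and Mpo (-0.64, 0.0210). Of all genes 3.86% were lower and 2.28% higher. The mean log2 value of the 25 genes ran from 9.28 to 9.91 on the arrays numbered 1 and from 9.49 to 10.35 on the others. By fusion it ran from 9.28 to 9.65 with BCR-ABL, from 9.69 to 10.12 with BCR-RET and from 9.91 to 10.35 with FGFR1OP-RET. The part of any of these differences in the results below was not tested.

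By array number, 7 of the 14 hypoxia response members, 2 of the 10 members from hexokinase to aldolase and 1 of the 3 transporters were higher on the arrays numbered 1. In limma, with a mean for each fusion and 1 term for number 1, 11 of the 33 members passed an adjusted p under 0.05, against 6.14% of all genes tested (1224 of 19938). Higher on the arrays numbered 1 were 10 members (30.3%; 2.28% of all genes), and 1 member was lower (3.03%; 3.86% of all genes). The 10 were 7 hypoxia response genes (Ankrd37, Ddit4, Kdm3a, Vegfa, Ndrg1, Mxi1 and P4ha1), the hexokinase gene Hk2, the phosphofructokinase gene Pfkp and the glucose transporter gene Slc2a1, and the 1 lower member was Pgk1. The median log2 difference of the members was 0.10, beside 0.00 for all genes tested. The members were chosen with earlier results of these data known, so these shares and medians are no independent test. These are bulk samples, in which a shift in the share of cells in some state and a shift in RNA per cell cannot be told apart.

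Ankrd37, an ankyrin repeat protein gene with the HIF core letters near its start printed above, had the highest difference of the members. It was at 10.02, 9.13 and 8.85 on BCR-ABL arrays 1, 2 and 3, at 10.11, 9.15 and 8.97 on the BCR-RET arrays and at 10.17, 8.96 and 8.76 on the FGFR1OP-RET arrays (log2 RMA values, as are all values by array here). The 3 arrays numbered 1 lay above the other 6 without overlap, and within every fusion the array numbered 3 was the lowest. The mean was 10.10 ± 0.08 (SD, n = 3) on the arrays numbered 1 and 8.97 ± 0.15 (n = 6) on the others, a 2.19-fold difference (log2 difference 1.13, SE 0.08, adjusted p = 0.00162). Only 1 of the 19938 genes had a higher log2 difference. It passed without each of the 9 arrays in turn, with a highest adjusted p of 0.0225.

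Ddit4 encodes an inhibitor of mTOR signalling that is induced by low oxygen and by other stresses. Its values were 10.84, 10.19 and 9.83 with BCR-ABL, 11.23, 10.63 and 10.29 with BCR-RET and 11.30, 10.62 and 10.15 with FGFR1OP-RET, for arrays 1, 2 and 3. Within each fusion the order was array 1, then 2, then 3. The lowest array numbered 1, of BCR-ABL, lay above all arrays numbered 2 and 3 by less than the arrays numbered 1 differed among themselves. Ddit4 averaged 11.12 ± 0.25 on the arrays numbered 1 and 10.29 ± 0.30 on the others, 1.79-fold higher (log2 difference 0.84, SE 0.12, adjusted p = 0.00802). Without BCR-RET array 1 or FGFR1OP-RET array 1 it no longer passed (adjusted p = 0.0888 and 0.0638; 0.00321 at the lowest over the 9 omissions).

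**Figure D1:**
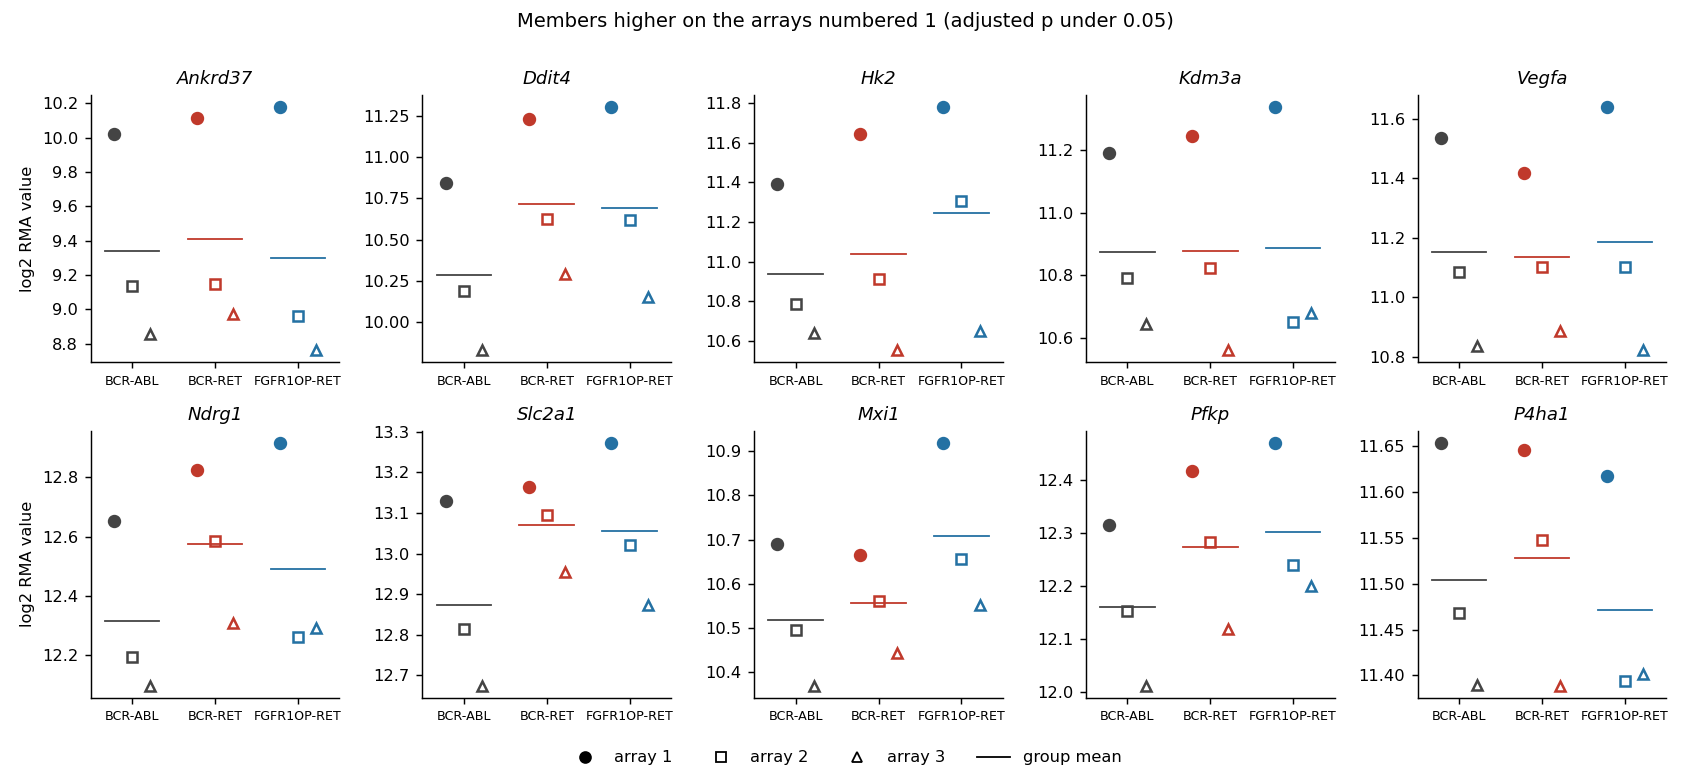
Log2 RMA values (vertical axis, a separate scale for each gene) of the 10 members higher on the arrays numbered 1, by fusion; filled circles are arrays numbered 1, squares 2 and triangles 3, and lines are group means of 3 arrays. In all 10 panels the 3 filled circles lie above every square and triangle, for Ankrd37 at 10.02 to 10.17 against 8.76 to 9.15.

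Kdm3a, a histone demethylase gene, stood at 11.19, 10.79 and 10.65 with BCR-ABL, at 11.24, 10.82 and 10.56 with BCR-RET and at 11.34, 10.65 and 10.68 with FGFR1OP-RET. Arrays 2 and 3 changed places between fusions, while array 1 was the highest in each. The difference was 0.56 (SE 0.07, 1.48-fold, adjusted p = 0.00485), lost without BCR-RET array 1 (0.0646) or FGFR1OP-RET array 1 (0.0536). Vegfa, the angiogenic growth factor gene, was at 11.53, 11.09 and 10.84 with BCR-ABL, at 11.42, 11.10 and 10.89 with BCR-RET and at 11.64, 11.10 and 10.82 with FGFR1OP-RET. Here the order of arrays 1, 2 and 3 was the same in the 3 fusions, and the arrays numbered 2 lay between 11.09 and 11.10. Vegfa differed by 0.56 (SE 0.09, 1.47-fold, adjusted p = 0.0109), and did not pass without BCR-ABL array 1 (0.0600), BCR-RET array 1 (0.0845) or FGFR1OP-RET array 1 (0.0793). Ndrg1, a stress-induced gene, had 12.65, 12.19 and 12.10 with BCR-ABL, 12.83, 12.59 and 12.31 with BCR-RET and 12.92, 12.26 and 12.29 with FGFR1OP-RET. BCR-RET array 2, at 12.59, came nearest to the arrays numbered 1. The difference of Ndrg1 was 0.51 (SE 0.07, 1.42-fold, adjusted p = 0.00786), lost without BCR-RET array 1 (0.0612) or FGFR1OP-RET array 1 (0.0615).

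Mxi1 and P4ha1 differed less. Mxi1, whose product competes with MYC for its partner MAX, was at 10.69, 10.49 and 10.37 with BCR-ABL, at 10.67, 10.56 and 10.44 with BCR-RET and at 10.92, 10.66 and 10.55 with FGFR1OP-RET. FGFR1OP-RET array 2, at 10.66, nearly reached BCR-RET array 1. The log2 difference was 0.25 (SE 0.05, 1.19-fold, adjusted p = 0.0316). P4ha1, a catalytic subunit gene of collagen prolyl hydroxylase, was at 11.65, 11.47 and 11.39 with BCR-ABL, at 11.65, 11.55 and 11.39 with BCR-RET and at 11.62, 11.39 and 11.40 with FGFR1OP-RET. The 3 arrays numbered 1 lay close together, with an SD of 0.02, and above the other 6. P4ha1 was 0.21 higher (SE 0.05, 1.15-fold, adjusted p = 0.0372).

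The other 7 hypoxia response members did not pass. Higd1a, a mitochondrial protein gene, had the largest difference among them, 0.27 (SE 0.11, adjusted p = 0.177), and its BCR-RET array 3 (9.67) was as high as FGFR1OP-RET array 1 (9.67). P4ha2, the other prolyl hydroxylase subunit, differed by 0.13 (adjusted p = 0.200), and Adm, the gene of a vasodilator peptide, by 0.12 (0.237). Bnip3, a receptor for the removal of mitochondria, lay at -0.01, and the oxygen sensors Egln1 and Egln3 at -0.04 and -0.03. Car9, a carbonic anhydrase gene widely used as a marker of hypoxia, had a difference of -0.17 (SE 0.05, adjusted p = 0.0916). Its arrays numbered 1, at 8.07, 8.21 and 8.24, lay below all others (8.26 to 8.52). The hypoxia response members therefore had values on both sides of 0, with a median of 0.23.

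At the head of glycolysis, Hk2 differed and its paralogues Hk1 and Hk3 did not pass. Hk2 encodes the inducible hexokinase, which traps glucose in the cell by phosphorylation. It was at 11.39, 10.79 and 10.64 with BCR-ABL, at 11.64, 10.91 and 10.55 with BCR-RET and at 11.78, 11.30 and 10.65 with FGFR1OP-RET. Each fusion showed the order of array 1, 2 and 3, and FGFR1OP-RET array 2 came closest to the arrays numbered 1. Hk2 averaged 11.61 ± 0.20 on the arrays numbered 1 and 10.81 ± 0.27 on the others, 1.74-fold higher (log2 difference 0.80, SE 0.13, adjusted p = 0.0137). It did not pass without BCR-ABL array 1 (0.0561), BCR-RET array 1 (0.152) or FGFR1OP-RET array 1 (0.0834). The differences of Hk1 and Hk3 were -0.01 and -0.01 (adjusted p = 0.968 and 0.945). The kept probe set of Hk1 is annotated without a RefSeq messenger RNA and another gave 0.11, so the value of Hk1 is uncertain.

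Slc2a1, the gene of the widespread glucose transporter GLUT1, was at 13.13, 12.81 and 12.67 with BCR-ABL, at 13.16, 13.09 and 12.95 with BCR-RET and at 13.27, 13.02 and 12.87 with FGFR1OP-RET. The BCR-RET arrays lay close together, and BCR-RET array 2 was almost as high as BCR-ABL array 1. Slc2a1 was 0.28 higher on the arrays numbered 1 (SE 0.06, 1.22-fold, adjusted p = 0.0362). Slc2a3, a transporter of high affinity for glucose, differed by 0.14 (adjusted p = 0.133) and the lactate exporter gene Slc16a3 by 0.03 (0.787), with overlapping ranges. Pfkp, the platelet-type phosphofructokinase gene, was at 12.32, 12.15 and 12.01 with BCR-ABL, at 12.42, 12.28 and 12.12 with BCR-RET and at 12.47, 12.24 and 12.20 with FGFR1OP-RET. The lowest array numbered 1, at 12.32, was just above the highest of the others, at 12.28. The log2 difference of Pfkp was 0.23 (SE 0.05, 1.18-fold, adjusted p = 0.0336), beside 0.16 for Pfkl, the liver type (0.301), and -0.03 for Pfkm, the muscle type (0.814). Pfkfb3 and Pfkfb4, which set the level of the sugar bisphosphate that activates phosphofructokinase, differed by 0.10 (0.416) and 0.02 (0.90). Aldoa and Aldoc, the aldolase genes, differed by -0.07 (0.392) and 0.04 (0.666).

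Of the 6 later enzymes, from triose phosphate to lactate, 1 passed, in the direction opposite to Hk2 and Slc2a1. Pgk1, the gene of phosphoglycerate kinase and a common reporter of HIF activity, was at 13.61, 13.79 and 13.88 with BCR-ABL, at 13.65, 13.89 and 13.83 with BCR-RET and at 13.64, 13.72 and 13.77 with FGFR1OP-RET. The 3 arrays numbered 1 were the lowest, without overlap. Pgk1 was 0.18 lower on them (SE 0.05, adjusted p = 0.0485, just inside the threshold). Of the other 5 genes of this stretch, Tpi1 (-0.13, adjusted p = 0.108), Pgam1 (-0.06, 0.545) and Ldha (-0.04, 0.709) had negative differences, Eno2 was at 0.00 and Pkm, pyruvate kinase, at 0.14 (0.229) with array 1 above arrays 2 and 3 in each fusion. Ldha, whose product makes lactate, ranged from 14.09 to 14.21 over the 9 arrays, with array 1 the lowest of BCR-ABL and between the others of both RET fusions. The median of the 6 was -0.05.

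**Figure D2:**
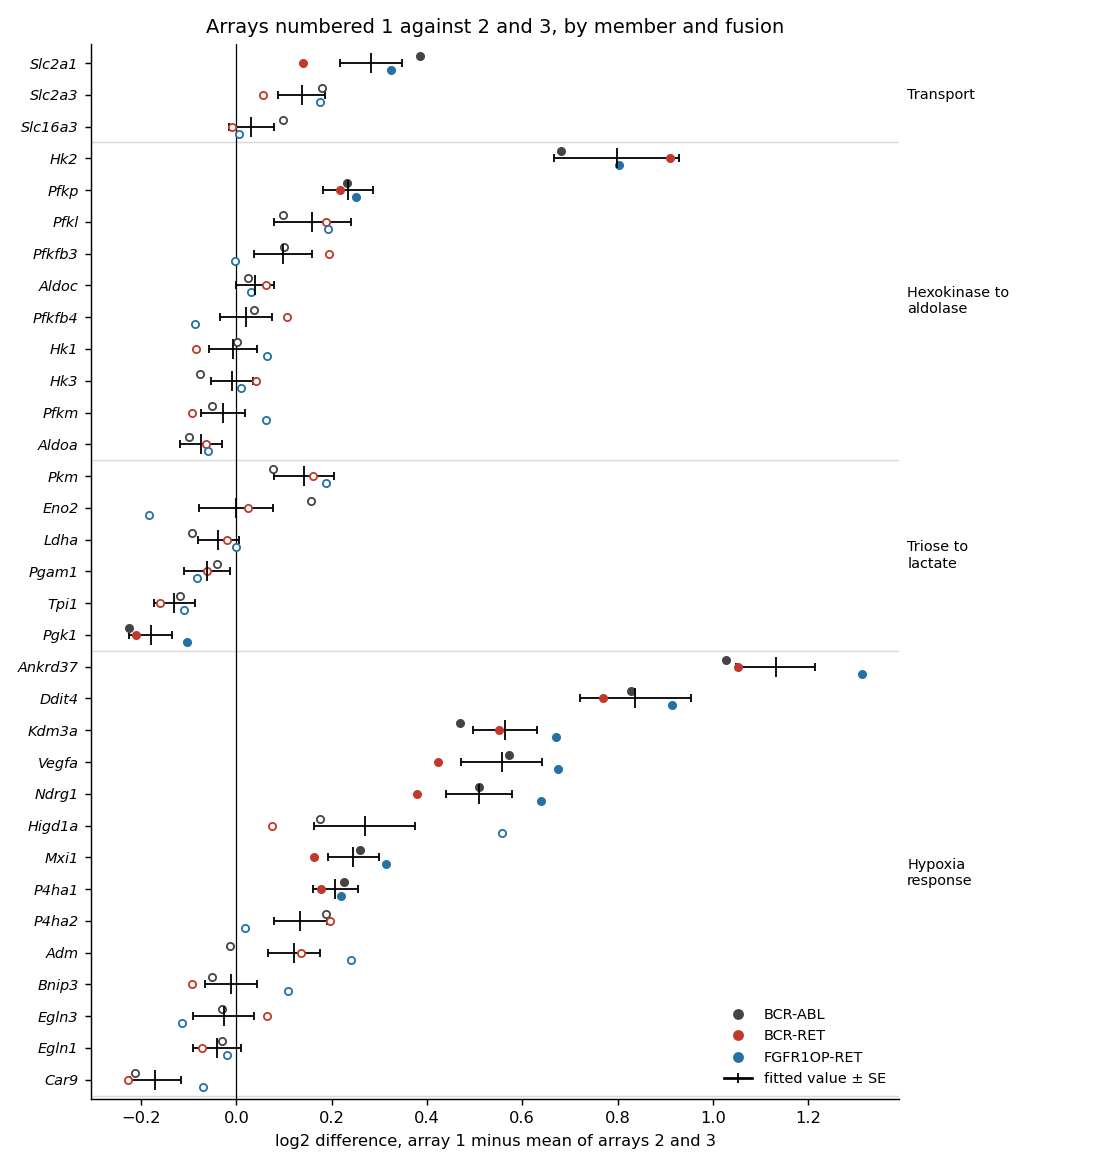
Log2 difference of array 1 from the mean of arrays 2 and 3 for each of the 33 members, by role: circles are the value within each fusion, filled where the member passed an adjusted p under 0.05, and the black tick and bar are the limma estimate ± SE over the 9 arrays. Ankrd37, Ddit4 and Hk2 lie farthest to the right in all 3 fusions (0.68 to 1.31), whereas Tpi1, Pgk1 and Car9 lie left of 0 in all 3.

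The 5 members with the smallest differences among those that passed lost the call in most fits that left out 1 array: Mxi1 and Pfkp passed in 3 of the 9, Slc2a1 and P4ha1 in 2 and Pgk1 in 1. Their differences kept their sign in these fits: 0.21 to 0.29 for Mxi1, 0.21 to 0.26 for Pfkp, 0.23 to 0.35 for Slc2a1, 0.19 to 0.23 for P4ha1 and -0.22 to -0.16 for Pgk1. Mxi1 and Pfkp were kept without array 2 of each fusion alone, and the highest adjusted p reached 0.144 and 0.200, both without BCR-RET array 1. Slc2a1 and P4ha1 were kept without array 2 of BCR-RET or FGFR1OP-RET (up to 0.173 without BCR-ABL array 1 and 0.197 without BCR-RET array 1), and Pgk1 without FGFR1OP-RET array 2 (up to 0.278 without BCR-RET array 1). The count of members that passed was 4, 8 and 6 without BCR-ABL arrays 1, 2 and 3, 1, 10 and 6 without BCR-RET arrays 1, 2 and 3, and 1, 13 and 6 without those of FGFR1OP-RET. The corresponding counts over all genes ran from 9, without BCR-RET array 1, to 2791, without FGFR1OP-RET array 2, so the members' counts moved with those of the whole array. Leaving out an array numbered 1 leaves that fusion out of the comparison, so the estimate then rests on the other 2 fusions.

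The difference by number had the same sign in the 3 fusions for each of the 11 members that passed. Ankrd37 differed by 1.03 in BCR-ABL, 1.05 in BCR-RET and 1.31 in FGFR1OP-RET cells, Ddit4 by 0.83, 0.77 and 0.91, and Hk2 by 0.68, 0.91 and 0.80. Other members varied more between fusions in proportion: Slc2a1 differed by 0.38, 0.14 and 0.32, Pgk1 by -0.23, -0.21 and -0.10, and Higd1a, which did not pass, by 0.17, 0.08 and 0.56. A moderated F-test of whether it differed between fusions called 0 members and 0 genes (0%; unadjusted p under 0.05 for 693 genes and for 0 members, the lowest member p being 0.140 for Adm). This test has 3 residual degrees of freedom per gene before moderation, so it does not show that the fusions act alike. Direct counts need no fit: array 1 lay above arrays 2 and 3 in all 3 fusions for 12 of 33 members (36.4%; 8.38% of all genes), the 10 that passed and Pfkl and Pkm. It lay below both in all 3 fusions for 4 members, Aldoa, Tpi1, Pgk1 and Car9 (12.1%; 12.5% of all genes).

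Arrays 2 and 3 also differed in a repeated direction. Array 2 lay above array 3 in all 3 fusions for 15 of the 33 members (45.5%; 13.3% of all genes), among them Ddit4 (by 0.36, 0.33 and 0.47 in BCR-ABL, BCR-RET and FGFR1OP-RET cells), Hk2 (0.15, 0.36 and 0.65), Vegfa (0.25, 0.21 and 0.28) and Ankrd37 (0.28, 0.17 and 0.20). The other members of this count were Slc2a1, Pfkl, Pfkp, Pfkm, Eno2, Pkm, Ldha, Egln3, Car9, Adm and Mxi1. Car9 thus had array 2 above 3 but array 1 below both. Set against the rest in the same kind of fit, neither number 2 nor number 3 gave a call in limma for any gene (unadjusted p under 0.05 for 371 and 2785 genes, 2 and 12 of them members).

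The 10 higher members all had probe set means from 9 to 13, and Pgk1, the lower one, was at 13.75. Slc2a1, the highest of these 10 in mean value, lay at the bound of 13 itself. The counts by range below therefore depend on where that bound was placed. Of 17 members with a mean value from 9 to 13, 10 were higher on the arrays numbered 1, as were 4.41% of the 7830 genes in that range, whereas 8.30% of those genes were lower. The 8 members with a mean above 13 (Hk1, Aldoa, Tpi1, Pgk1, Pgam1, Pkm, Ldha and Bnip3) included none that was higher and 1 that was lower, Pgk1; of the 267 genes in that range 0.375% were higher and 3.00% lower. None of the 8 members at 9 or lower passed in limma (Car9 and P4ha2 had an unadjusted p under 0.05). A probe set's value is not an amount of transcript, and how far high or low values narrow the differences was not tested.

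**Figure D3:**
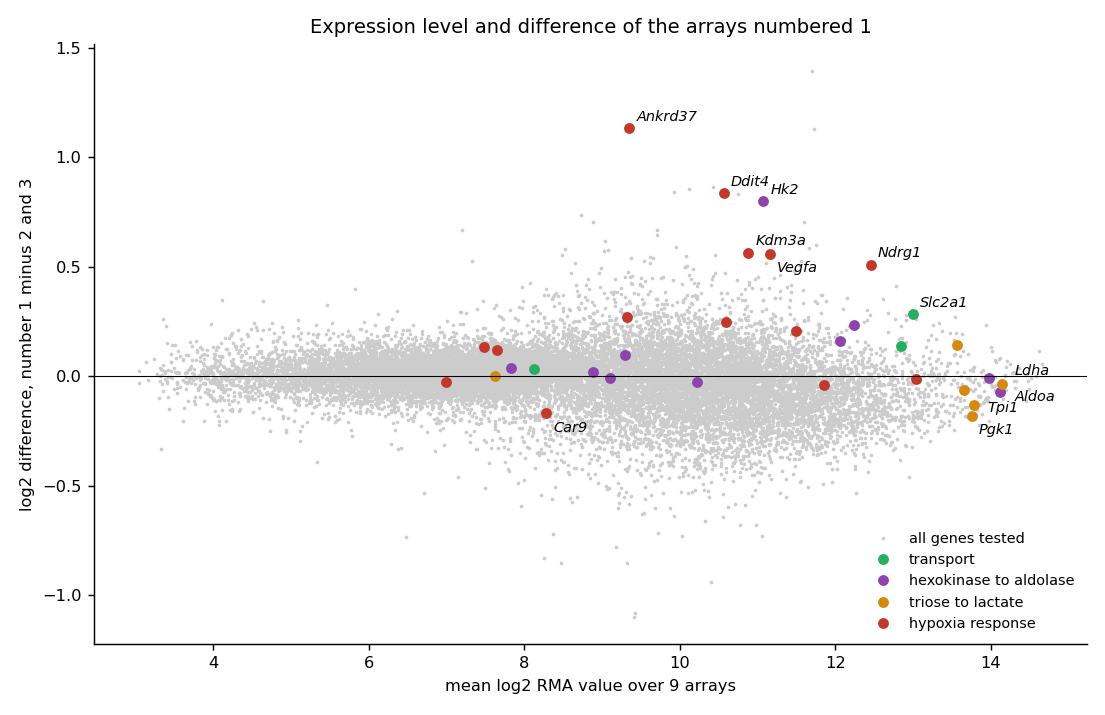
Mean log2 RMA value over the 9 arrays (horizontal axis) and log2 difference of the arrays numbered 1 from those numbered 2 and 3 (vertical axis) for all 19938 genes in grey and the 33 members coloured by role. Ankrd37, Ddit4 and Hk2 are at the upper edge of the genes with means from 9 to 13, while the members above 13 lie between -0.18 and 0.14. Slc2a1, with a mean at the bound of 13, lies at 0.28.

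Genes of the pathways around the members were read, as counts, from lists that were also chosen with earlier results of these data known. On the arrays numbered 1, 2.28% of all genes tested were higher and 3.86% lower, with a median difference of -0.0003. A count of 0 or 1 in the shorter lists is not read as a result about the list. Of 32 measured other hypoxia-induced genes, 7 were higher on the arrays numbered 1 and 0 lower, with a median difference of 0.03: Nfil3 (0.83, adjusted p = 0.00240), a transcription factor that also answers to interleukin-3, Kdm4b (0.45, 0.00802), Hmox1 (0.30, 0.0266) and Jmjd6 (0.26, 0.0263) had the largest differences. Of 15 other glycolysis enzymes 1 was higher, Pfkfb2 (0.39, 0.0210), and the median was -0.02. Of 11 genes of glycogen turnover and reverse steps, Gys1, glycogen synthase, was higher (0.25, 0.0196) and Ugp2 lower (-0.34, 0.0196). None of 7 pentose phosphate enzymes passed (4 had an unadjusted p under 0.05). Of 13 genes of oxygen sensing and HIF subunits, 0 were higher and 1 lower: Hif1a itself, at -0.27 (SE 0.06, adjusted p = 0.0272), with a median of -0.15. The HIF alpha subunit is controlled mainly through the stability of its protein, which an expression array does not measure.

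Between fusions the hexokinase gene Hk3 was the only member that passed in limma, and it did so in all 3 comparisons, which share arrays. Hk3, a hexokinase of myeloid cells, was at 8.90, 8.95 and 9.01 on the BCR-ABL arrays, at 8.70, 8.63 and 8.69 on the BCR-RET arrays and at 9.69, 9.70 and 9.66 on the FGFR1OP-RET arrays. The 3 groups did not overlap, with BCR-RET lowest and FGFR1OP-RET highest, and unlike Hk2 the array numbered 1 did not stand out. Group means were 8.95 ± 0.05, 8.67 ± 0.04 and 9.68 ± 0.02 (SD, n = 3). The myeloid list above was chosen after values of these data were seen, so its counts are no independent test. Of its 25 genes, 7 were higher in FGFR1OP-RET than in BCR-ABL cells, among them Mpo (1.55), Mmp8 (1.33), Prtn3 (1.27) and Cd14 (1.06), beside 157 of all 19938 genes. In BCR-RET cells 4 were lower than in FGFR1OP-RET cells (Mmp9 by -1.44, Cd14 by -1.21, Cebpe by -0.73 and Prtn3 by -0.65), beside 170 of all genes. None of the 25 passed between BCR-RET and BCR-ABL, where the list's median was 0.44 and Hk3 was lower. There 10 of the 25 had an unadjusted p under 0.05 in limma, as had 2271 of all 19938 genes. The part of the myeloid genes in the difference of Hk3 was not tested.

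Against FGFR1OP-RET, BCR-RET cells had 2.02-fold less Hk3 (log2 difference -1.01, SE 0.05, adjusted p = 2.55e-05), and FGFR1OP-RET had 1.66-fold more than BCR-ABL (0.73, SE 0.05, adjusted p = 3.51e-04). Both differences passed without each of the 9 arrays in turn (adjusted p up to 5.68e-04 and 0.00644) and on the arrays numbered 2 and 3 alone (-1.02, 0.0146, and 0.70, 0.0367). The difference of BCR-RET from BCR-ABL was smaller, -0.28 (SE 0.05, 1.22-fold lower, adjusted p = 0.0378). It was lost without any 1 of the 9 arrays, with adjusted p from 0.0537 without FGFR1OP-RET array 3 to 0.173 without BCR-ABL array 2, and on the arrays numbered 2 and 3 alone it was -0.32 (0.198). The counts of 1 of 33 members (3.03%) stood beside 0.587% of all genes for BCR-RET against BCR-ABL, 1.02% when FGFR1OP-RET was set against BCR-ABL and 1.33% between the RET fusions. At an unadjusted p under 0.05 there were 3, 3 and 1 of the 33 members in that order, beside 2271, 1943 and 2964 of all 19938 genes. The promoter of Hk3 printed above has 1 match to the HIF core letters, on the strand opposite to the gene.

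**Figure D4:**
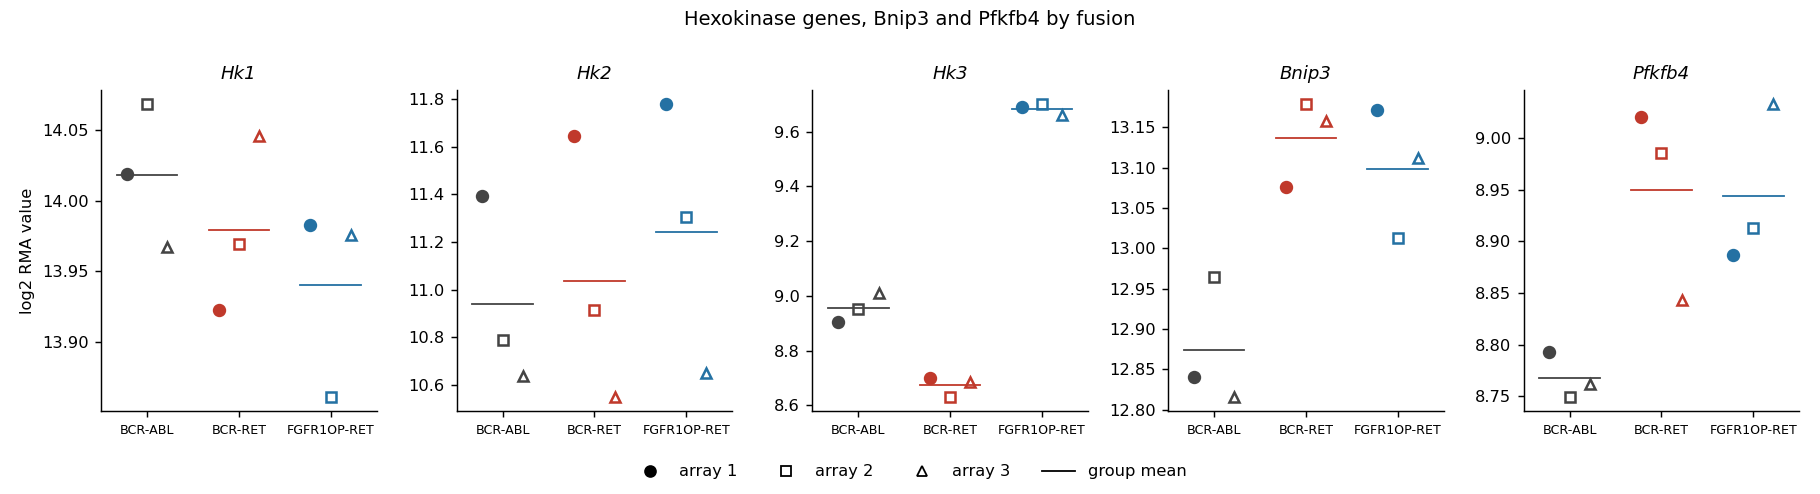
Log2 RMA values (vertical axis, a separate scale for each gene) of Hk1, Hk2, Hk3, Bnip3 and Pfkfb4 by fusion, with filled circles for arrays numbered 1, squares for 2, triangles for 3 and lines for group means. Hk3 separates the 3 fusions (8.63 to 8.70, 8.90 to 9.01 and 9.66 to 9.70), whereas the spread of Hk2 within each fusion follows the array number.

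The remaining 32 members did not pass between fusions. The largest differences of BCR-RET from BCR-ABL were those of Ddit4 (0.43, SE 0.34, adjusted p = 0.639), Higd1a (0.34, SE 0.16, 0.468) and Bnip3 (0.26, SE 0.06, 0.142), and the lowest beside Hk3 were Egln3 (-0.07) and Slc2a3 (-0.07). Same-numbered arrays of these 2 groups deviated together (r = 0.617, 0.155 and 0.367 for numbers 1, 2 and 3). For number 2 this was no closer than across numbers: BCR-RET array 2 with BCR-ABL array 3 gave 0.222, as did BCR-RET array 3 with BCR-ABL array 2. With the number as a block in limma Ddit4 also passed (0.43, SE 0.06, adjusted p = 0.00501), as Hk3 did (0.0323). The count of members was then 2 and that of all genes 362 in place of 117. Within each number Ddit4 was 0.39, 0.44 and 0.46 higher in BCR-RET than in BCR-ABL cells.

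Ranges of BCR-RET and BCR-ABL did not overlap for 3 members, Hk3, Pfkfb4 and Bnip3 (9.09%; 16.6% of all genes). For Bnip3 the 3 BCR-ABL arrays were at 12.84, 12.97 and 12.82, the BCR-RET arrays at 13.08, 13.18 and 13.16 and the FGFR1OP-RET arrays at 13.17, 13.01 and 13.11. Both RET fusions thus lay above BCR-ABL without overlap, though neither difference passed (0.26 and 0.22, adjusted p = 0.142 and 0.203). Pfkfb4 showed the same arrangement, with means of 8.77 ± 0.02, 8.95 ± 0.09 and 8.94 ± 0.08 for BCR-ABL, BCR-RET and FGFR1OP-RET (adjusted p = 0.312 and 0.355).

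FGFR1OP-RET and BCR-ABL did not overlap for 5 members, Hk3, Pfkm, Pfkfb3, Pfkfb4 and Bnip3 (15.2%; 12.1% of all genes). After Hk3 the highest differences were those of Ddit4 (0.40, adjusted p = 0.769) and Hk2 (0.30, 0.833), both with a spread that followed the array number, and the lowest were Hk1 (-0.08), Pfkm (-0.08) and Slc2a3 (-0.05). With the number as a block in limma Ddit4 passed here too (0.40, SE 0.06, adjusted p = 0.00496), though the arrays numbered 2 did not deviate together (r = -0.128). Between the RET fusions Hk3 alone did not overlap (3.03%; 15.3% of all genes). Higd1a (0.20), Ankrd37 (0.11) and Tpi1 (0.09) had the highest differences of BCR-RET from FGFR1OP-RET, and Hk2 (-0.21) and Mxi1 (-0.15) the lowest after Hk3; the sign for Ankrd37 turned with array weights (-0.06). The median differences of the members from BCR-ABL were 0.04 with BCR-RET and 0.04 with FGFR1OP-RET, beside 0.03 and 0.00 for all genes, and between the RET fusions the median was 0.01, beside 0.03.

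**Figure D5:**
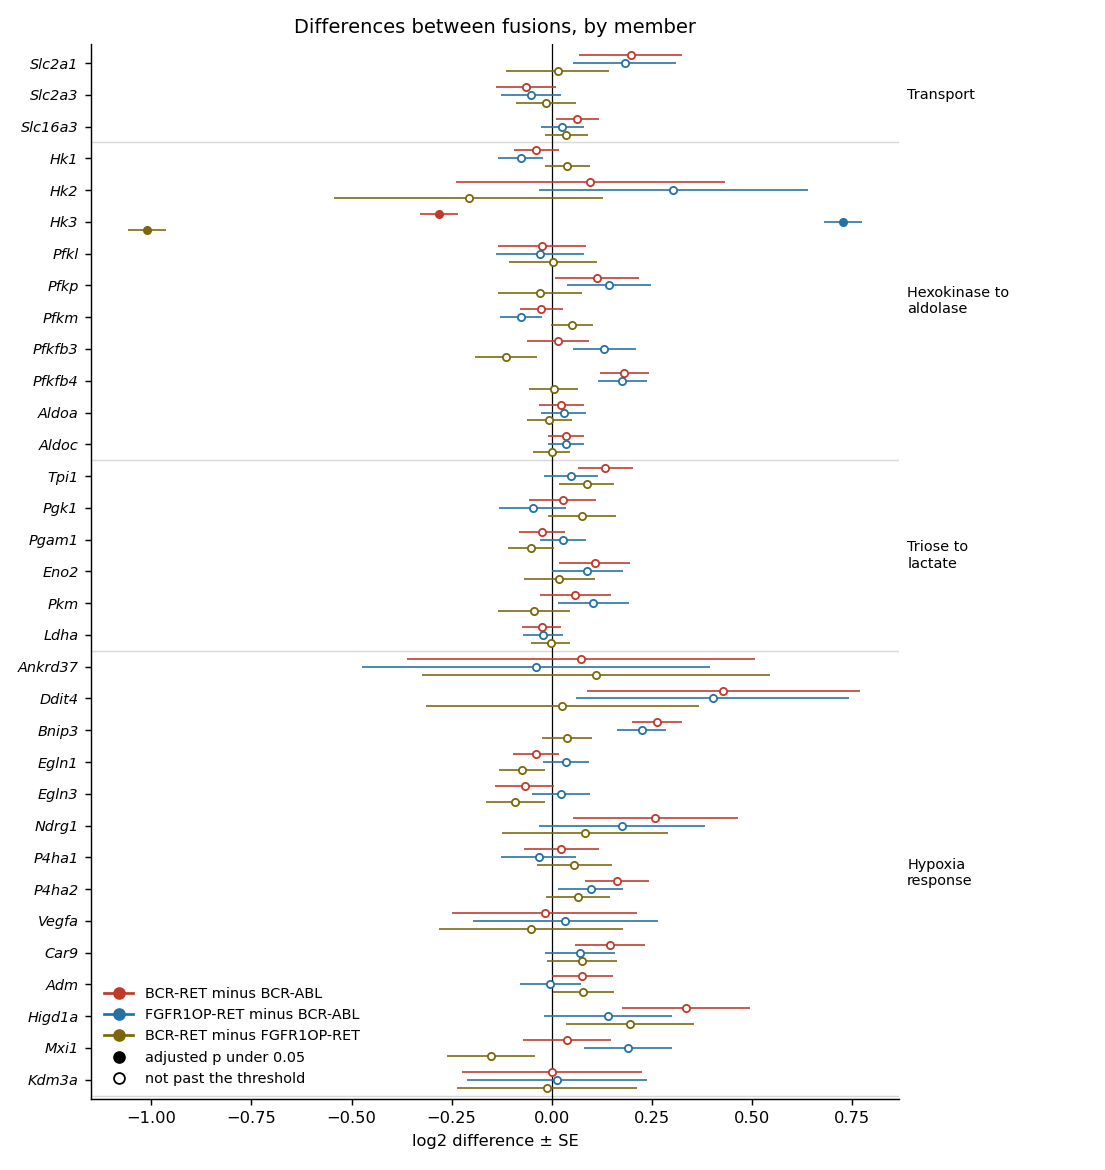
Log2 differences ± SE of the 33 members between fusions, by role: red is BCR-RET minus BCR-ABL, blue FGFR1OP-RET minus BCR-ABL and olive BCR-RET minus FGFR1OP-RET, with filled points for an adjusted p under 0.05. Hk3 has the only filled points (-0.28, 0.73 and -1.01), and the bars of Ankrd37, Ddit4 and Hk2, whose arrays spread by number, are the longest.

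In the lists around the members, Arnt2, a dimerisation partner of HIF alpha subunits, was lower in both RET fusions than in BCR-ABL cells, by -0.48 in BCR-RET (SE 0.06, adjusted p = 0.0122) and by -0.69 in FGFR1OP-RET (SE 0.06, 0.00182). Pgf, an angiogenic factor related to Vegfa, was 0.54 higher in BCR-RET than in FGFR1OP-RET cells (SE 0.09, 0.0313). No other gene of the glycolysis, pentose phosphate, glycogen, oxygen sensing or hypoxia-induced lists passed between fusions.

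For 6 members the array held several probe sets with the gene's symbol alone, and the one with the highest mean was used. The 3 probe sets of Pgk1 gave -0.18, -0.18 and -0.18 by array number, 2 of them with the same values on every array, so they are not separate measurements. Bnip3 gave 0.26 and 0.36 for BCR-RET against BCR-ABL and 0.22 and 0.22 for FGFR1OP-RET against BCR-ABL, and -0.01 and -0.11 by array number. Higd1a gave 0.27 and 0.21 by number, Pkm 0.14 and 0.09, and Pgam1 -0.06, -0.08 and -0.08. The last 2 probe sets of Pgam1 had the same mean and the same difference in every comparison, so they may not be separate measurements. The kept probe set of Hk1, with a mean of 13.98, is annotated by 1 accession without a RefSeq messenger RNA, and 16 further probe sets list Hk1 together with other genes; the second probe set of Hk1, at 11.34, gave 0.11 by number, 0.04 for BCR-RET and 0.10 for FGFR1OP-RET against BCR-ABL. The values of Hk1 are therefore uncertain. Many glycolytic enzymes have processed copies elsewhere in the genome, and cross-hybridisation of their probe sets was not tested. Exact repeats of a value across arrays occurred for 8 members, and Aldoc had the same value on 2 of the 3 BCR-ABL arrays.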

How the data were processed

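The deposited log2 values, 1 for each probe set on each array, were produced by the authors with RMA in Affymetrix Expression Console, as the submitters' processing notes list; version, annotation and genome build: not given in the sources used here. RMA equalises the arrays' distributions, so a shift of most transcripts would not be seen. Of 35557 probe sets, 21789 had 1 symbol in the platform annotation, 1621 several and 12147 none. Single-symbol probe sets were used, the highest mean over 9 arrays per gene, giving 19938 genes.

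Differences were fitted on all 9 arrays with limma 3.58.1 (lmFit and eBayes, tested on simulated data) in R 4.3.3; the design held a mean for each fusion and, for the comparison by number, 1 term for number 1. Adjusted p is Benjamini-Hochberg over all genes, with a threshold of 0.05. Groups and numbers came from the sample titles. Only between BCR-RET and BCR-ABL did same-numbered arrays deviate together across genes for all 3 numbers (0.617, 0.155 and 0.367). Blocked values are given there and, for Ddit4, for FGFR1OP-RET against BCR-ABL. No depth applies to arrays, and the number of arrays limits precision. The members and lists were chosen with earlier results of these data known, the myeloid list last. Named genes are every measured member, members past the threshold and the 3 highest and 3 lowest differences per comparison, and up to 4 genes past the threshold per other list; the Hk3 promoter and those of the 3 members with the highest differences by number were printed. Alternatives covered moderation, weights, centring, filtering, probe set choice, each array left out and the replicate block. A fit on the arrays numbered 2 and 3 alone was added after seeing the data.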

Additional observations from a re-analysis of the deposited data

How the results depend on the processing

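Members called for BCR-RET against BCR-ABL numbered 0 with limma-trend, 0 with only the 2 groups compared, 0 on the arrays numbered 2 and 3 alone, 2 with the replicate block and 0 without any 1 array; Hk3 had adjusted p from 0.00669 to 0.198 over the alternatives other than omissions, 0.0527 with limma-trend and 0.0902 with only the 2 groups. Genes called there numbered 293 with array weights, 362 with the block, 56 with only the 2 groups, 28 on arrays 2 and 3, and 28 to 114 without 1 array. For FGFR1OP-RET against BCR-ABL the block gave 2 members, since Ddit4 passed (adjusted p = 0.00496), and 576 genes, against 94 with only the 2 groups, 62 on arrays 2 and 3, and 70 to 185 without 1 array. For BCR-RET against FGFR1OP-RET the genes numbered 1135 with the block, 34 with only the 2 groups, 67 on arrays 2 and 3, and 86 to 194 without 1 array. In both of these comparisons 1 member passed without each array. In them the numbers did not pair the arrays (r = -0.128 and -0.152 for number 2), and the block changed no other member's call. By number, genes called were 2750 with array weights, 2003 among genes above the median level and 9 to 2791 without 1 array; members numbered 1 to 13 without 1 array. Setting number 2 or number 3 against the rest, which is another contrast, called 0 members and 0 genes in each case. The F-test by fusion called 0 members and 0 genes in the fits that could be made without 1 array. P4ha1 did not pass by number with arrays centred (0.0578), nor Pgk1 with arrays centred (0.0672), with probe sets of several symbols added (0.0509) or with number as a term of 3 levels (0.0509); with array weights Car9 (-0.20, 0.0282) and Tpi1 (-0.14, 0.0432) passed. Signs turned for members that had not passed: Ankrd37 between the RET fusions with array weights (-0.061) and when 1 array was left out (-0.24 to 0.55), Hk2 there when 1 array was left out (-0.51 to 0.060), Hk1 for FGFR1OP-RET against BCR-ABL with the mean of its probe sets (0.0086) and Slc2a3 in that comparison when 1 array was left out (-0.11 to 0.0090). The causes of these changes were not tested. With 3 arrays a group and no detection calls, small differences and low values are the least certain.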

Other observations

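Of 28 measured genes of the amino acid stress response, 4 were higher and 1 lower on the arrays numbered 1, with a median difference of -0.01 (log2, limma). Of all genes tested 2.28% were higher and 3.86% lower. The list was chosen with earlier results of these data known, so its counts are no independent test. Trib3, a pseudokinase that dampens AKT signalling, was 0.50 higher (adjusted p = 0.0266), Nupr1 0.46 (0.0361) and Ddit3, a transcription factor of the unfolded protein response, 0.38 (0.0336). Slc7a11, the cystine transporter gene, was lower, at -0.59 (0.00661). In each of these 4 genes array 1 was on the same side of arrays 2 and 3 in all 3 fusions.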
